A study of Homo sapiens with 2 samples.

Results

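Processed pseudogenes are DNA copies of spliced messenger RNAs, and 7308 of them were examined here in a nucleosome map of ARPE-19 cells. They were taken from the GENCODE 44 annotation of hg38 as genes of type processed pseudogene on chromosomes 1 to 22, 300 to 3000 bp long, that overlap no exon of a protein-coding gene. The annotation holds 10146 such genes, of which 9302 lie on these chromosomes and 7538 also have the required length. ARPE-19 is a widely used human line derived from the retinal pigment epithelium. The labels give 2 batches of the same cells in interphase under normal culture, with no treatment, time course or control arm. Micrococcal nuclease (MNase), which cuts the DNA between nucleosomes, was applied for 5 min at 37 °C, and fragments of 150 bp were recovered from a gel and sequenced.

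The deposited list holds 2634347 rows and names no batch, so the map was treated as 1 sample without replicates. Each row is a single base without a height or a score. Here it is called a position, the authors' call of where a nucleosome lies. On chromosomes 1 to 22 there were 2558490 positions, or 0.928 per kb of determined sequence. A list of positions carries no expression, so the identity of the cells could not be checked from markers. How many reads gave rise to it is unknown.

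A processed pseudogene arises when the enzymes of a LINE-1 element, a mobile DNA element of the genome, reverse transcribe a cellular messenger RNA and insert the copy elsewhere. The copy therefore lacks the introns and usually the promoter of its parent gene, and it often ends in an A-rich stretch from the poly(A) tail. Messenger RNAs of ribosomal proteins, short and abundant, are among the most frequently copied. The copies bring exon sequence, which is richer in G and C than most intergenic DNA, to other places in the genome, between genes or within them. They thus hold coding-type sequence outside the exon and intron structure from which it came.

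Of the 7308 copies, 1260 derive from ribosomal protein genes, 916 of the large subunit (symbols starting RPL) and 344 of the small subunit (RPS). The other 6048 derive from all other genes. The median length was 664 bp (quartiles 455 and 1020 bp) over all copies and 489.5 bp over the ribosomal protein copies. For 4671 copies the symbol names a protein-coding parent, and 4658 of them could be aligned to the parent's main transcript, with a median identity of 88.4% (quartiles 82.6 and 92.8%). The annotated copies mostly follow the coding sequence. Of the aligned copies, 63.3% begin within 20 bases of the parent's start codon and 71.7% end within 20 bases of its stop codon. Among ribosomal protein copies these shares were 82.8 and 85.7%.

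The sequences below show what such a copy looks like at a splice junction of its parent, at its A-rich end and at its start. All are given 5′ to 3′ on the strand of the copy, from hg38. The first pair shows RPL21P117 at chr15:59552945-59552984, minus strand, and the transcript of its parent RPL21, which encodes a protein of the large ribosomal subunit. In the genome the parent's bases are split between exon 3 (chr13:27254262-27254281) and exon 4 (chr13:27255242-27255261), 960 bp apart, and in the copy they are joined. Capitals mark the bases from exon 3, and the 40 bases hold 0 differences.
RPL21P117: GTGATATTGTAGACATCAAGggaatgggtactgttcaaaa
RPL21: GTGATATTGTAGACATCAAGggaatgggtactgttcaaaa

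The next 3 stretches, each of 147 bp inside an annotated copy, surround a called position that lies 75 to 100 bp before the annotated 3′ end, the place where ribosomal protein copies were most often occupied. The capital marks the called base. They come from RPL21P117 (chr15:59552633-59552779, minus strand), RPS10P14 (chr7:37375873-37376019, plus strand, a copy of the small-subunit gene RPS10 that lies within ELMO1 on the opposite strand) and RPL7AP5 (chr14:68338734-68338880, minus strand, a copy of RPL7A within RAD51B on the opposite strand). Their positions lie 91, 77 and 79 bp before the last annotated base, and the GC content of the stretches is 46.9, 52.4 and 47.6%.
RPL21P117: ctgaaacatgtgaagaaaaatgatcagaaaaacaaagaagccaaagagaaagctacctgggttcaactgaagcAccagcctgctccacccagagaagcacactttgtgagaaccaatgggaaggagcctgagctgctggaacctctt
RPS10P14: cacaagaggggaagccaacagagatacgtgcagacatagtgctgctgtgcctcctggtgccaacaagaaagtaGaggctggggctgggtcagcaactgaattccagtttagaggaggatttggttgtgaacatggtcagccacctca
RPL7AP5: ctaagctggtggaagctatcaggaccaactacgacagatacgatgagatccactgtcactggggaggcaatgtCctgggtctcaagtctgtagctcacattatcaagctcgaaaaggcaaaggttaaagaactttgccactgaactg

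Beyond the same copies, the 30 bases that follow the last base aligned to the parent's transcript show the A-rich end, with A in capitals. They lie at chr15:59552535-59552564, chr7:37376074-37376103 and chr14:68338638-68338667 and hold 23, 23 and 20 A. The aligned sequence ends 50, 50 and 60 bp beyond the annotated 3′ end.
RPL21P117: AtAAAtAAAcAAAtAAAtAAtAAAAtAAAA
RPS10P14: tAAAAAAAtgAAcAAAcAAAcAAAcAAAAA
RPL7AP5: AAAAAgAAAAAAAAtAtggcAAgcAtAAAg

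These 3 copies were chosen among 31 ribosomal protein copies eligible for display, with a position in that window and an identified end, as those with most A, 1 for each parent. The last 3 sequences show where copied DNA begins, with 15 bases of the surrounding genome in lower case and the first 15 copied bases in capitals. ISCA1P1 (chr5:62777329-62777358, minus strand), BDH2P1 (chr6:99174656-99174685, plus strand) and HSPD1P4 (chr12:56510926-56510955, plus strand) copy genes for an iron-sulfur assembly protein, a dehydrogenase and a mitochondrial chaperonin. Each has a called position 67, 60 or 74 bp inside the copy, respectively, and none in the 100 bp before it. They were chosen among 27 such copies eligible for display as the most identical to their parents (99.5, 97.5 and 96.4%), 1 for each parent.
ISCA1P1: aaaagttgggaaaccAATGCGCCCGCCGTG
BDH2P1: caaaaaaaaaaaaagAGTTTGTTGCTCCCA
HSPD1P4: tataaaaatttttagCCCTCACTCGCCGCC

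The first question was whether the inserted DNA carries more nucleosome positions than the DNA around it. The copies held 6903 positions over 5.99 Mb, or 1.15 per kb. Their flanks, taken 1000 to 2000 bp outside either end, held 13386 positions, or 0.916 per kb. The copies were thus 1.26-fold denser, a log2 ratio of 0.33 (exact 95% interval 0.29 to 0.37). The interval covers counting error only. Across chromosomes the log2 ratio had an SD of 0.14 (n = 22) and was above 0 on 21, the exception being chromosome 17 at -0.11. Chromosomes share the cells and the libraries and are not replicates, and with a single list no test of the difference over samples was possible.

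The copies also differ from their flanks in base composition, at 46.9% against 40.6% GC. Position density depends on GC content in this list, with 0.120 per kb over autosomal bases at 30 to 32% GC, 0.641 at 38 to 40% and 1.84 at 46 to 48%. Each base was therefore given the density found on chromosomes 1 to 22 at its local GC content (2% bins, 200 bp around the base). Against this GC expectation the direction was the opposite. The copies reached 0.862 of the expected number and the flanks 0.992, a log2 ratio of -0.20 (-0.24 to -0.16) with an SD of 0.12 over chromosomes, below 0 on 20 of 22. Chromosomes 19 (0.035) and 20 (0.0057) lay above 0. Processed pseudogenes were therefore denser than their neighbourhood per base and less dense than sequence of the same GC content elsewhere in the genome.

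**Figure D1:**
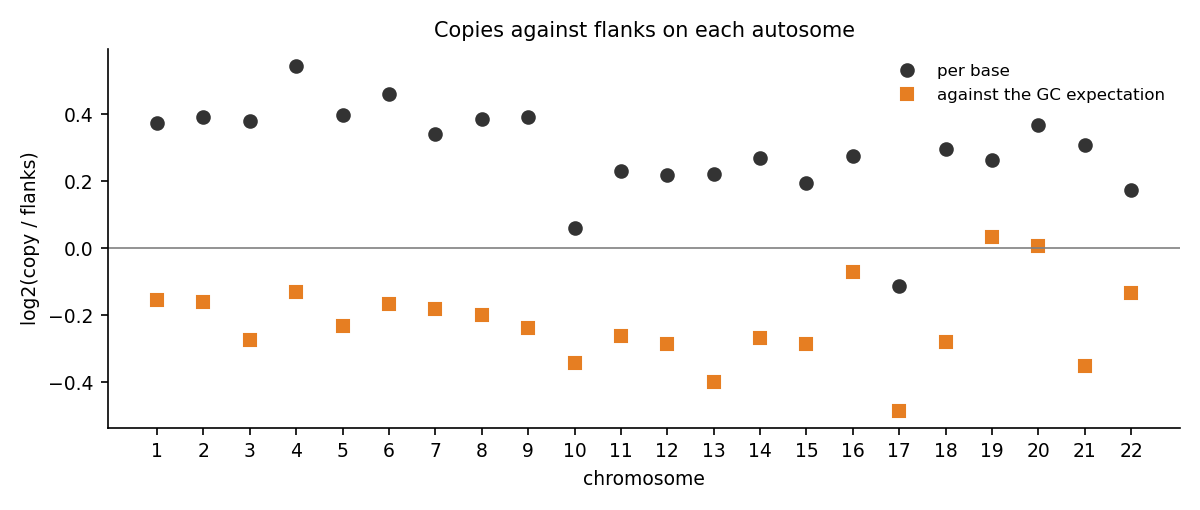
Log2 ratio of the density of positions in processed pseudogenes to that in their flanks on each autosome, per base (circles) and against the GC expectation (squares). Circles lie above 0 on 21 chromosomes and squares below 0 on 20.

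At least 1 position fell in 3769 of the 7308 copies, 51.6% (Wilson 95% interval 50.4 to 52.7%, counting error only). Windows as long as each copy, placed 1000 bp upstream or downstream of it, held a position in 43.6 and 43.3% of cases. Of the copies, 3539 held 0 positions, 2007 held 1, 1013 held 2 and 749 held 3 or more. The share rose with length, from 38.6% of the 3259 copies up to 600 bp (30.01 and 30.07% in their windows) to 79.2% of the 284 copies over 2000 bp (73.9 and 75%).

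Ribosomal protein copies carried 952 positions at 1.31 per kb, against 1.01 per kb in their flanks, a log2 ratio of 0.38 (0.27 to 0.49; SD over chromosomes 0.33; above 0 on 18 of 22). Other copies carried 1.13 against 0.898 per kb, a log2 ratio of 0.33 (0.29 to 0.38; SD 0.12; 22 of 22). The groups' ratios differed by 0.045, with an interval of -0.072 to 0.16 that includes 0. By GC expectation the log2 ratios were -0.15 (-0.26 to -0.042) and -0.21 (-0.25 to -0.16), and their difference of 0.058 (-0.059 to 0.17) also had an interval that includes 0. Taken over the whole body, ribosomal protein copies were not set apart from the rest. At the annotated ends they were. At the first copied base, described below, the other copies had the larger contrast, but no interval was computed for that difference.

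The density was not even along a copy. The first 150 bp and the last 150 bp together held 1.34 positions per kb and the interior between them 1.05. Relative to the flanks, the interior had a log2 ratio of 0.19 (0.14 to 0.25) per base and -0.34 (-0.39 to -0.29) against the GC expectation. The outer 300 bp exceeded the interior by 0.34 (0.27 to 0.41) on the log2 scale against the GC expectation. In the copy divided into 10 equal parts from the 5′ end, the ratio of observed to expected positions was 1.03 in part 1, 0.74 in part 3 and 1.04 in part 10. Ribosomal protein copies had an interior at 0.740 of the GC expectation and outer 300 bp at 1.08, and other copies 0.790 and 0.976.

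At the annotated 5′ end, the first 150 bp of all copies held 1.37 positions per kb and the 150 bp before them 1.08, a log2 ratio of 0.34 (0.23 to 0.45; above 0 on 17 of 22 chromosomes). Against the GC expectation it was 0.12 (0.0046 to 0.23), and with windows of 300 bp it turned to -0.041. At the annotated 3′ end the contrast was steeper, with 1.301 per kb in the last 150 bp and 0.801 in the 150 bp beyond. That log2 ratio was 0.70 (0.58 to 0.82; 22 of 22 chromosomes), and 0.24 (0.12 to 0.37; 18 of 22) against the GC expectation (0.0014 with windows of 300 bp). The 3′ ratio exceeded the 5′ ratio by 0.36 (0.19 to 0.52) per base, and by 0.13 (-0.035 to 0.29) against the GC expectation, where the interval includes 0.

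Ribosomal protein copies showed sharper annotated ends. Their last 150 bp held 290 positions, 1.53 per kb, and the 150 bp beyond held 95, 0.503 per kb. The log2 ratio of 1.61 (1.27 to 1.958; 20 of 22 chromosomes) exceeded that of other copies, 0.54 (0.40 to 0.67), by 1.07 (0.71 to 1.43; SD over chromosomes 1.00; 19 of 22). Against the GC expectation the difference was 0.63 (0.27 to 0.99), and with windows of 300 bp it was 0.372 per base and 0.164 by GC. In bins of 25 bp the density peaked at 2.60 per kb between 75 and 100 bp inside the 3′ end (82 positions, 1.84 times the GC expectation). It was lowest, at 0.254 per kb (8 positions), in the 25 bp beyond it. At the 5′ end the peak was 2.13 per kb between 25 and 50 bp inside, and the inside to outside log2 ratio of 0.83 (0.54 to 1.13) exceeded that of other copies by 0.58 (0.27 to 0.89; 18 of 22). By GC expectation the ratio was 0.40 (0.11 to 0.70) and the difference 0.34 (0.030 to 0.65). Restricted to uniquely readable bases, defined below, the 3′ peak and the trough were 2.71 and 0.260 per kb.

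**Figure D2:**
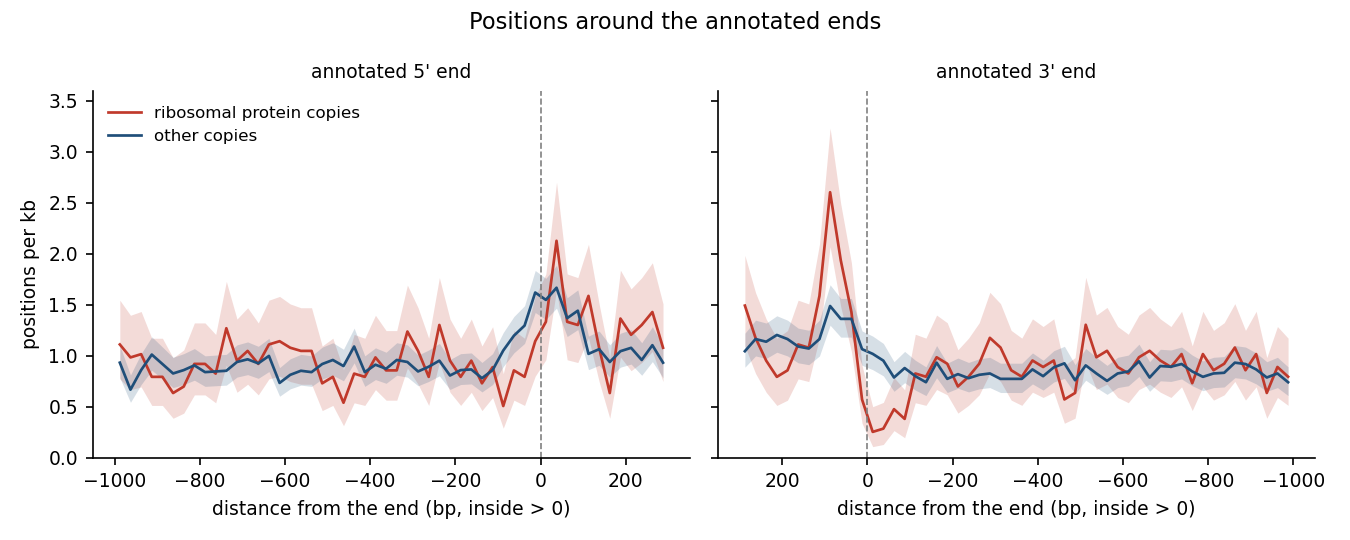
Positions per kb in bins of 25 bp from 1000 bp outside to 300 bp inside the annotated 5′ end and 3′ end (distance on the x axis, inside above 0), for 1260 ribosomal protein copies and 6048 other copies. Bands are exact 95% Poisson intervals. The ribosomal protein copies peak at 2.60 per kb between 75 and 100 bp inside the 3′ end and fall to 0.254 per kb just beyond it.

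The DNA just beyond the annotated 3′ end of ribosomal protein copies was A-rich, with 44.03% A between 50 and 75 bp beyond it, against 32.5% over all copies. At least 15 A in the 30 bases before or after the annotated 3′ end were found in 290 ribosomal protein copies (23.02%) and 726 other copies (12%). Since most annotated ends follow the stop codon, the 3′ untranslated region and the poly(A) tail of the copied RNA lie outside the annotated copy. Each aligned copy was therefore extended by 3000 bp on either side and aligned again to the parent's transcript, to find where the copied sequence itself begins and ends. The last copied base is here the last base aligned to the transcript, and any copied poly(A) tail lies beyond it. This step and the windows used below were chosen after the profiles had been seen.

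The copied sequence began within 20 bases of the first base of the parent's transcript in 2272 copies, 924 of ribosomal protein genes (73.5% of those aligned) and 1348 others (39.6%). It ran to within 20 bases of the transcript's last base in 1590 copies, 522 of ribosomal protein genes (41.5%) and 1068 others (31.4%). In 928 copies, 423 of them of ribosomal protein genes, both ends were found. Where its end was found, the copied sequence reached a median of 43 bp beyond the annotated 3′ end in ribosomal protein copies and 459.5 bp in the others. Where its start was found, it began a median of 31 and 73.5 bp before the annotated 5′ end. The annotated ends thus lay nearer to the copied ends in ribosomal protein copies. The part of this in the group difference at the annotated ends was not tested.

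Centred on the first copied base, the profile over all copies showed a sharp peak. Between 25 and 100 bp inside the copy there were 408 positions, 2.39 per kb, and in the 75 bp stretch from 100 to 25 bp before it there were 69, 0.405 per kb. This is a 5.91-fold difference, a log2 ratio of 2.56 (2.19 to 2.95; SD over chromosomes 1.26; above 0 on 21 of 22). Against the GC expectation it was 3.98-fold, and in uniquely readable bases 6.08-fold. These windows lie on the peak and the trough that had been seen. With the whole 150 bp on either side of the first copied base, the counts were 598 and 198 positions (1.75 and 0.581 per kb), a 3.02-fold difference (log2 1.59, 1.36 to 1.83; 22 of 22 chromosomes), and 2.03-fold against the GC expectation. A position lay in the inner window in 16.9% of the 2272 copies and in the outer window in 2.95%. Deeper in the copy, between 150 and 300 bp, the density was 0.971 per kb, and between 100 and 300 bp outside it was 0.940. Per base, both lay close to the value for all autosomes. Relative to the GC expectation the inside stood at 0.668 (0.60 to 0.74) and the outside at 1.06.

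Copies of genes that do not encode ribosomal proteins had the taller peak at the start. Their density rose from 0.178 per kb (6 positions) in the bin 50 to 25 bp before the copy to 3.41 per kb (115 positions) in the bin 50 to 75 bp inside it, 2.13 times the GC expectation, and was 0.564 per kb between 125 and 150 bp. Inner and outer window differed 8.35-fold (log2 3.06, 2.55 to 3.62; 284 and 34 positions), and 5.63-fold against the GC expectation. With 150 bp windows the difference was 3.57-fold (389 and 109 positions) and 2.39-fold against the GC expectation. In ribosomal protein copies the same bins held 0.476 and 2.55 per kb, and the windows differed 3.54-fold (log2 1.82, 1.27 to 2.41; 124 and 35 positions) and 2.37-fold against the GC expectation, with 2.35-fold and 1.59-fold in 150 bp windows. In those wider windows the log2 intervals of ribosomal protein and other copies overlapped, at 0.87 to 1.61 and 1.525 to 2.155 per base. Against the GC expectation they were 0.31 to 1.05 and 0.95 to 1.58. The peak lay in the same 25 bp bin in both groups. Ribosomal protein copies also held 1.775 per kb (41 positions) at 125 to 150 bp inside and 1.645 per kb (38 positions) at 225 to 250 bp. Against the GC expectation these bins stood at only 1.19 (0.85 to 1.61) and 1.115 (0.79 to 1.53). GC content changed at the same border, from 37.0% in the 25 bp before the other copies to 58.9% in their first 25 bp. The GC expectation, taken from 200 bp around each base, does not resolve so sharp a step.

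**Figure D3:**
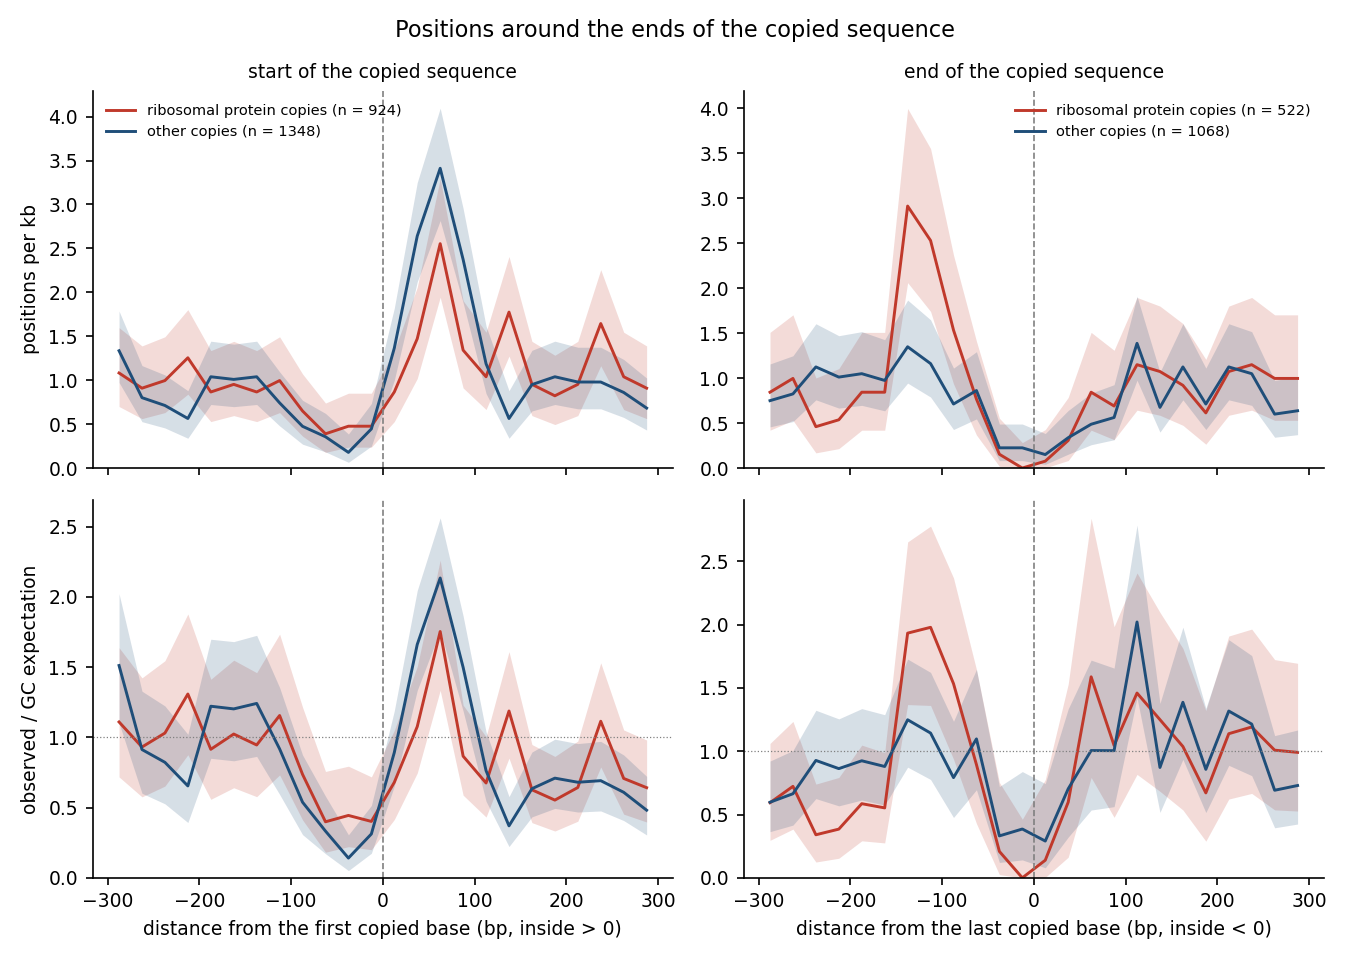
Positions per kb (top) and the ratio of observed to GC-expected positions (bottom) in bins of 25 bp around the first base (left) and the last base (right) of the copied sequence, for ribosomal protein copies and other copies. Bands are exact 95% Poisson intervals. A peak at 50 to 75 bp inside the start, 3.41 per kb in other copies and 2.55 in ribosomal protein copies, follows a trough outside it, and a trough surrounds the last copied base.

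Around the last copied base the pattern was a trough. From 25 bp before it to 50 bp after it, a stretch with 29.2% GC and 45.5% A, the 1590 copies held 24 positions, 0.201 per kb and 0.375 of the GC expectation. From 150 to 75 bp before the end they held 177, 1.48 per kb, a log2 ratio of 2.88 (2.26 to 3.56; SD over chromosomes 0.94; above 0 on all 22 autosomes). Against the GC expectation it was 1.87 (1.25 to 2.55; 20 of 22). That expectation uses the 200 bp around each base, so in the trough it also takes in the GC-richer sequence beside it. It therefore does not resolve the local GC content of the trough. Autosomal bases at 28 to 30% GC held 0.067 positions per kb. In the ribosomal protein copies 5 positions in the trough stood against 91 in the inner window, 0.128 and 2.32 per kb, an 18.2-fold difference (log2 4.19, 2.91 to 5.84) and 8.05-fold against the GC expectation. Their last 25 copied bases held 0 positions, which allows a density of up to 0.283 per kb. In other copies the windows held 19 and 86 positions, a 4.53-fold difference (log2 2.18, 1.45 to 2.98) and 2.39-fold against the GC expectation. These windows, too, were set on the trough that had been seen, and the contrast did not extend to wider ones. Between the last 150 copied bp and the 150 bp beyond, the log2 ratio was 0.58 (0.27 to 0.89) over all copies and 0.019 (-0.29 to 0.33) against the GC expectation. It was 0.93 and 0.31 in ribosomal protein copies, and 0.33 and -0.19 in the others, with intervals that include 0 on the GC scale in both.

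In uniquely readable bases, the log2 ratio at the last copied base was 2.88 over all copies. From 100 to 300 bp beyond the last copied base the density was 0.940 per kb, but it was not even. The bin at 100 to 125 bp held 1.31 per kb (52 positions), 1.82 times the GC expectation (1.36 to 2.385). In that bin the ratio was 2.02 (1.42 to 2.785) in other copies and 1.46 (0.82 to 2.407) in ribosomal protein copies. In the ribosomal protein copies the bin 150 to 125 bp before the last copied base was the fullest, at 2.91 per kb (38 positions), and the bins further inside, from 300 to 150 bp, together held 0.753 per kb. The A-rich end and the low density coincide in position. MNase cuts A- and T-rich DNA more readily than other DNA, and its part in the trough was not tested.

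RPS2P15, RPL7AP41, RPSAP55, RPL15P19 and RPS3AP34 were the ribosomal protein copies with most positions. RPS3AP34 (chr8:12570350-12571130, 781 bp) held 11 positions where GC content gives 0.610, but its flanks were also crowded, at 6.5 per kb. RPS2P15 (chr2:26101317-26102136), within RAB10 on the opposite strand, held 7 positions where 1.44 were expected, against 3 in its 2 kb of flanks. The positions lay 4, 46, 102, 136, 291, 531 and 752 bp from its 5′ end, 4 of them within the first 150 bp. RPL7AP41 (chr7:25212170-25212965) held 6 against 5 in its flanks, RPSAP55 (chr15:52885595-52886470) 5 against 1, and RPL15P19 (chr15:49177610-49178741, within GALK2 on the opposite strand) 5 against 2. These copies head the list because they were chosen by their counts, so the values are a description only.

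Among other copies, several of the highest counts came from regions that are crowded or repeated. ENSG00000261153 (chr16:33808778-33810767) held 18 positions with 16 in its flanks, although only 20.1% of its bases were uniquely readable. ENSG00000233974 (chr5:21481327-21484011) held 17 with 13 in its flanks, at 63.2% readable bases. PABPC1P13 (chr16:32439069-32441159), a copy of the gene for a poly(A)-binding protein, held 11 although 0% were. VN1R7P (chr21:10357400-10358620), named after a family of pheromone receptor genes, held 10 and its flanks 19. In unique sequence, ENSG00000277211 (chr16:20155648-20158391, 100% readable) held 11 positions where 4.96 were expected and 0 in its flanks. SOCS5P2 (chr9:135447446-135450154), a copy of a gene for a suppressor of cytokine signalling, held 11 with 4 in its flanks. DPP3P1 (chr4:64430909-64433215), a copy of a dipeptidyl peptidase gene, held 10 with 4, and ACTN4P2 (chr1:37776670-37779418), a copy of an actin-binding alpha-actinin gene, 10 with 2. ENSG00000224025 (chr9:68609125-68611984) held 10 with 2 in its flanks and ENSG00000271494 (chr5:151380341-151382381) 9 with 4.

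Copies of the same parent share most of their sequence, so each parent was also taken as a family. There were 32 parents with at least 20 copies, 1383 copies in all, and 20 of these parents are ribosomal protein genes. In 25 families the density exceeded that of their flanks, in 10 with an interval above 0, and in 0 families was the interval below 0. The median log2 ratio was 0.25 over the 32 families. Measured by the GC expectation, 22 families lay below their flanks, 6 with an interval below 0 and 0 with an interval above 0, and the median was -0.29. Taken singly, 15 families lay above their flanks per base and below them by GC, 10 lay above and 7 below on both scales. Of the 10 families with a per-base interval above 0, 7 stayed above 0 by GC, and EEF1A1, RPL23A and GAPDH turned.

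The densest family was that of RPL15, with 36 positions in 21 copies (2.63 per kb; flanks 1.07; log2 1.297, 0.62 to 1.961). RPS26 (30 copies, 2.19 per kb), RPSA (56 copies, 2.10 per kb, log2 1.02, 0.62 to 1.42), RPL36A (44 copies, 1.91 per kb) and RPL7A (72 copies, 1.75 per kb, log2 0.85, 0.46 to 1.23) followed. RPSA encodes a small-subunit protein also known as the laminin receptor. CYCS, the gene of cytochrome c in the respiratory chain, had 26 copies at 1.66 per kb with flanks of only 0.635 (log2 1.38, 0.40 to 2.30). For RPSA and RPL7A the log2 ratios against the GC expectation were 0.045 (-0.36 to 0.45) and 0.0045 (-0.39 to 0.39).

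The largest family, RPL21 with 117 copies, held 73 positions at 1.16 per kb (log2 0.19, -0.21 to 0.57). The lowest densities among families were those of BNIP3 (0.579 per kb, 39 copies), a mitochondrial regulator of autophagy and cell death, and RPS15A (0.660 per kb, 6 positions in 24 copies). Their flanks held 0.615 and 0.875 per kb, and both intervals of the ratio include 0. KRT8 and KRT18 encode the paired keratins of simple epithelia, and their copies are GC-rich (56.6 and 55.2%). They carried 0.870 and 1.20 positions per kb, with log2 ratios against the GC expectation of -1.06 (-1.59 to -0.54) and -0.67 (-1.12 to -0.22). HNRNPA1, which encodes an RNA-binding protein of the nucleus, had 63 copies at 1.18 per kb and -0.83 (-1.26 to -0.41) against the GC expectation. The copies of the transcriptional repressor gene CIC had 0.753 per kb at 61.2% GC, but only 41.5% of their bases were uniquely readable. Their flanks were sparser still, at 0.4 per kb (log2 0.91, 0.036 to 1.855).

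**Figure D4:**
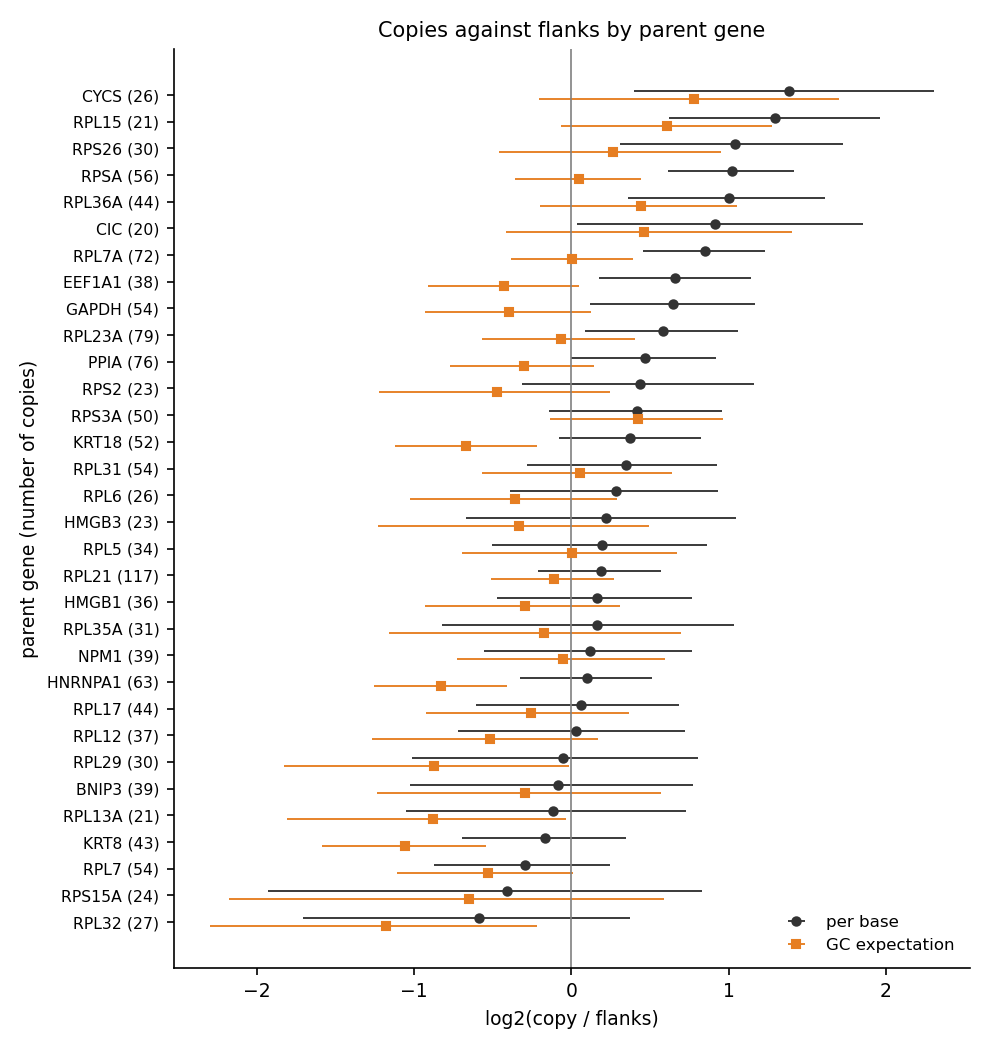
Log2 ratio of the density in copies to that in their flanks for the 32 parent genes with at least 20 copies, per base (circles) and against the GC expectation (squares), with exact 95% intervals. The number of copies stands beside each symbol. Circles lie above 0 for 25 families and squares below 0 for 22.

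Copies of large-subunit genes held 1.27 positions per kb with a log2 ratio to flanks of 0.30 (0.17 to 0.43), and copies of small-subunit genes 1.41 per kb with 0.59 (0.38 to 0.79). Relative to the GC expectation the ratios were -0.23 (-0.36 to -0.098) and 0.037 (-0.17 to 0.24). RPSA gave 56 of the 344 small-subunit copies, at 2.10 per kb and a log2 ratio of 1.02. The other small-subunit families with at least 20 copies, RPS26, RPS2, RPS3A and RPS15A, had log2 ratios of 1.04, 0.44, 0.42 and -0.41. No interval was computed for the difference between the subunits, and it was not tested without RPSA. Parents were also grouped by function. Copies of respiratory chain and mitochondrial genes such as CYCS and VDAC1 were densest (64 copies of 9 parents, 1.70 per kb, log2 0.89, 0.40 to 1.37). Copies of translation factor genes such as EEF1A1 had 1.49 per kb (92 copies, log2 0.57, 0.24 to 0.89), and copies of glycolytic genes such as GAPDH 1.18 per kb (80 copies, log2 0.62, 0.21 to 1.02).

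Copies of chaperone and folding genes such as PPIA had 1.15 per kb (117 copies, log2 0.27, -0.091 to 0.61). For RNA-binding protein genes the value was 1.03 (136 copies, log2 0.064, -0.24 to 0.36), for cytoskeletal genes 1.06 (135 copies, log2 0.19, -0.10 to 0.47) and for chromatin protein genes such as HMGB1 1.08 (103 copies, log2 0.0053, -0.41 to 0.40). The sparsest group was that of ubiquitin and ferritin genes, with 18 positions in 51 copies, 0.697 per kb (log2 -0.34, -1.16 to 0.40). It includes RPS27A copies, which also count as ribosomal protein copies. Relative to the GC expectation that group lay at -1.08 (-1.90 to -0.34) and the cytoskeletal group at -0.74 (-1.03 to -0.46), while the respiratory group lay at 0.14 (-0.35 to 0.61). RNA-binding, chromatin, glycolysis, translation factor and folding groups lay between, at -0.66, -0.42, -0.39, -0.34 and -0.26. Several groups rest largely on a few of the families with at least 20 copies. KRT18 and KRT8 gave 52 and 43 of the 135 cytoskeletal copies. PPIA gave 76 of the 117 folding copies, and GAPDH 54 of the 80 glycolytic ones. HNRNPA1 and NPM1 gave 63 and 39 of the 136 RNA-binding copies, at -0.83 and -0.052 against the GC expectation. HMGB1 and HMGB3 gave 36 and 23 of the 103 chromatin copies. EEF1A1 gave 38 of the 92 translation factor copies and CYCS 26 of the 64 respiratory ones.

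Density was lowest in the copies most like their parents. A copy loses identity to its parent as mutations accumulate after the insertion. Copies under 80% identical (786) held 1.22 positions per kb, those between 80 and 90% (1911) 1.24, those between 90 and 95% (1375) 1.09 and those over 95% (586) 0.705. The log2 ratios to the flanks were 0.47 (0.34 to 0.59), 0.46 (0.38 to 0.54), 0.18 (0.080 to 0.27) and -0.22 (-0.41 to -0.037). Set against the GC expectation they were -0.045 (-0.17 to 0.084), -0.16 (-0.24 to -0.076), -0.40 (-0.50 to -0.31) and -0.79 (-0.97 to -0.60). The classes at either extreme do not overlap in their intervals on either scale.

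Near-identical copies are also harder to read by sequencing. A base was called uniquely readable if the 150 bp fragment centred on it has, at either end, a 50-base stretch that occurs a single time in hg38. By this measure 94% of the bases of all copies were readable, and 94.2% of their flanks, but only 85.9% in copies over 95% identical to the parent. Counting only readable bases, the log2 ratios against the GC expectation were -0.062, -0.17, -0.39 and -0.77 (-0.96 to -0.58) in the 4 classes of rising identity. The read length and the authors' rule for reads that match several places are not given in the sources used here, and the part of read placement in this difference was not tested.

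**Figure D5:**
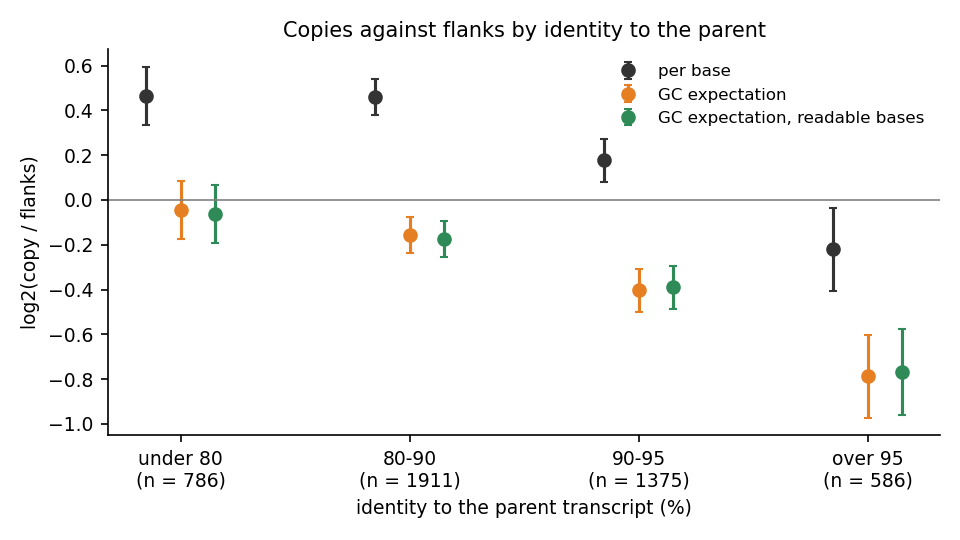
Log2 ratio of the density in copies to that in their flanks by identity to the parent transcript, per base, against the GC expectation, and against the GC expectation in uniquely readable bases, with exact 95% intervals. Per base it falls from 0.47 in copies under 80% identical to -0.22 in those over 95%.

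The 6513 copies with at least 90% readable bases held 1.23 positions per kb (log2 ratio to flanks 0.38, 0.34 to 0.43; -0.16, -0.20 to -0.11, against the GC expectation). The 491 copies with 50 to 90% readable bases held 0.668 per kb and the 304 with less 0.384, and 64 copies had no readable base.

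By setting, copies inside a protein-coding gene on the same strand (840), on the opposite strand (1531) and outside such genes (4896) had log2 ratios of 0.34 (0.21 to 0.47), 0.36 (0.26 to 0.46) and 0.32 (0.27 to 0.37). A further 41 copies lay in genes on both strands. By length, the log2 ratio was 0.40 up to 600 bp, 0.37 up to 1000, 0.29 up to 2000 and 0.39 up to 3000 bp, with overlapping intervals. Copies with an A-rich annotated end (1016) had 0.16 (0.033 to 0.28) and the remaining copies 0.35 (0.31 to 0.40).

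The copies consist of exon sequence, so they were compared with exons in place. Internal coding exons of 100 to 300 bp (42502) held 1.44 positions per kb against 0.967 in the introns 300 to 500 bp away, a log2 ratio of 0.57 (0.54 to 0.61), and 0.30 (0.26 to 0.34) against the GC expectation. The ratio in processed pseudogenes was lower by 0.24 (interval -0.30 to -0.18 for the difference; lower on 18 of 22 chromosomes). Against the GC expectation the difference was -0.50 (-0.56 to -0.45; 21 of 22), at a GC content of 46.9% in copies and 48.3% in exons. Exon and intron windows are shorter and nearer to each other than copy and flank windows.

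Within exons, the central part held 4362 positions and the outer parts, of about 2 times its length in all, 5126, a log2 ratio of 0.74 (0.68 to 0.80; 21 of 22 chromosomes). For the copies, 14701 exon junctions of the parents were projected onto 3376 copies, which gave 6710 copied exons of 100 to 300 bp in 2692 copies. Their central part held 1.14 per kb and the outer parts 1.09, a log2 ratio of 0.063 (-0.12 to 0.24; SD over chromosomes 0.49; 13 of 22). Around projected junctions, the density stayed between 0.939 and 1.25 per kb in bins of 30 bp out to 150 bp on either side. The central rise seen in exons in place was not detectable in copied exons, whose interval lies below that of the exons.

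Unprocessed pseudogenes, which arise by duplication of genomic DNA and so can keep introns, served as the other comparison. Whether those used here hold introns was not checked. The 1243 that met the same rule held 0.998 positions per kb against 0.807 in their flanks, a log2 ratio of 0.31 (0.21 to 0.41). The ratio of processed pseudogenes differed from it by 0.026 (-0.082 to 0.13) per base and by -0.13 (-0.24 to -0.026; lower on 17 of 22 chromosomes) against the GC expectation. Only 81.7% of the bases of unprocessed pseudogenes were uniquely readable. Their outer 300 bp exceeded their interior by 0.22 (0.047 to 0.39) on the log2 scale against the GC expectation, and those of processed pseudogenes by 0.34 (0.27 to 0.41). At the annotated 3′ end the inside to outside log2 ratio of unprocessed pseudogenes was 0.75 (0.43 to 1.08) per base and 0.44 (0.11 to 0.77) against the GC expectation, beside 0.70 and 0.24 in processed ones. A drop beyond the 3′ end was thus not particular to processed copies. Whether these values differ between the types was not tested.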

How the data were processed

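Per the labels' protocols, DNA of MNase-digested ARPE-19 cells was gel-selected at 150 bp and sequenced on Illumina libraries. Bowtie2 and the builds hg38 and GRCh38 are named in the submitters' processing notes. The caller, threshold, fragment filter and treatment of the 2 batches are not given in the sources used here. The name of the deposited list holds a number range whose meaning is not stated. The deposited table gives chromosome, start and end of 1 bp rows and no other value, and it names no sample. It has 0 columns of other samples.

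Positions on chromosomes 1 to 22 were counted over bases that are not N, after removal of 4 repeated rows. Densities were compared as log2 ratios with exact Clopper-Pearson 95% intervals, which cover counting error only. Values per chromosome had 0.5 added to each count. No significance test was made, since 1 list gives no replicates. Parents were taken from symbols, identity from blastn 2.17.0 (E value 1e-05) against the MANE Select or canonical transcript of GENCODE 44. For the ends of the copied sequence, alignments in the same order up to 500 bp apart were joined. Counting used numba 0.67.0 and pandas 2.3.3 under Python 3.11.15, intervals used scipy 1.17.1 with numpy 2.4.6, and both were tested on simulated positions. Named copies are the 5 ribosomal protein and 10 other copies with most positions, and families those with at least 20 copies. Copies shown as sequence were chosen by the rules stated beside them, after the profiles were seen. Copies on chromosome 8 were not eligible for display, and the numbers of eligible copies leave them out. The members and lists were chosen with earlier results of these data known. Alternatives changed flanks, windows, merging of positions, chromosomes, readable bases, GC bins and weights.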

Additional observations from a re-analysis of the deposited data

How the results depend on the processing

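Of 198 alternative values for 32 results, 167 stayed within the counting interval, 29 left it and 2 reversed, both against the GC expectation: the 5′ end contrast, -0.041 with 300 bp windows, and the contrast at the last copied base in other copies, -0.194 with 150 bp on either side. With equal weight per copy the ratios to flanks were 0.388 for all copies (-0.148 against the GC expectation) and 0.383 for other copies (-0.15). Without the outer 75 bp of the body they were 0.26 and 0.263, and against the GC expectation -0.282 for all, -0.282 for other and -0.265 for ribosomal protein copies. GC bins of 1% from 150 bp gave -0.277 for all and -0.288 for other copies. The 3′ end contrast was 0.561 with 300 bp windows, and against the GC expectation 0.37 with 75 bp and 0.0014 with 300 bp windows. The remaining values were added after the data were seen. The excess of ribosomal protein copies at the annotated 3′ end was 1.49 (GC expectation 1.18) with 75 bp and 0.372 (0.164) with 300 bp windows. With 150 bp on either side, the contrast at the first copied base was 1.59 for all, 1.23 for ribosomal protein and 1.83 for other copies (GC expectation 1.02, 0.673 and 1.26). At the last copied base it was 0.579, 0.932 and 0.334 (GC expectation 0.019 for all and 0.314 for ribosomal protein copies). No paired analysis was possible because the design has 1 group and the list names no batch, and for the same reason no batch could be left out. Positions carry no score, so no stricter threshold could be set. Depth is unknown, and windows with few positions limit the values per chromosome.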

Other observations

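Neighbouring positions within the same copy (3134 pairs) lay under 60 bp apart, closer than the width of a nucleosome, in 18.3% of cases, against 21.5% of 5644 pairs in the flanks.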
